A study of Mus musculus with 7 samples.

Results

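The genes described here are 34 markers of white blood cells, measured in pancreatic islets of mice on a high-fat diet. They were chosen by symbol from the deposited table of gene counts, which holds 55487 rows, and every one was found there. They comprise 2 genes of all leukocytes, 16 of macrophages and other myeloid cells, 4 of antigen presentation on MHC class II, 8 of T and cytotoxic cells and 4 of B cells. All 34 passed the filter on low counts that left 16203 genes to test. The genes were taken by symbol, from a list drawn up with earlier results of these data known.

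RNA was sequenced from isolated islets of 4 control mice and 3 mice labelled Traf6 KO, in which the series' design text places the loss of Traf6 in beta cells. Both groups ate a 60% high-fat diet for 15 weeks, and the islets rested in culture medium for 24 hours after isolation before total RNA was taken. A tissue DNA kit is what the labels name for the extraction, and reads were paired, 151 bp long, from a NovaSeq instrument. The labels give neither the strain, the Cre driver, the control genotype in more detail, the age, the sex nor the litter, and no sorting of leukocytes is mentioned, so a marker level is a level in whole islet preparations. Because every library has a different animal tag, a library was counted as 1 mouse, and where animals were in fact shared the tests would only reflect the spread among these samples.

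Islets hold a resident population of macrophages that lie along the capillaries and touch the endocrine cells. These cells depend on the receptor for colony-stimulating factor, engulf granules and cell debris, and display peptides on MHC class II. T and B cells are sparse in islets of animals without autoimmune disease, and B cells also sit in lymph nodes and lymphoid clusters of the pancreas that can be carried into a preparation. Complement C1q, which starts the classical complement cascade, is made by macrophages from the products of C1qa, C1qb and C1qc. TRAF6, the protein encoded by the targeted gene, passes on signals of Toll-like and interleukin-1 receptors.

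Class II genes share a promoter architecture, the X and Y boxes, which the factors RFX and NF-Y bind and on which the coactivator CIITA assembles. PU.1, encoded by Spi1, is a factor of myeloid and B cells that binds GGAA cores. The promoters of 2 class II genes and 2 C1q genes are shown because the class II counts kept nearly fixed proportions to each other in every library and the C1q genes are neighbours that were both highest in control 4, as given further on. They were read from RefSeq on GRCm38.p6, 5′ to 3′ in the direction of the gene, and positions count back from the annotated start. Of the 34 genes, 21 had an entry in the promoter table. Capitals mark, in H2-Aa and H2-Eb1, the X box core CTNGCAACT and the Y box CTGATTGG, and in C1qb and C1qc the PU.1 core AGGAAGT, which both hold on the reverse strand, written ACTTCCT.
H2-Aa, chr17:34287824-34287953, minus strand: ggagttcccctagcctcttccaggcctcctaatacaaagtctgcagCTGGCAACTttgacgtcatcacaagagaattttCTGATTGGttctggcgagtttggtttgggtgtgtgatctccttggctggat
H2-Eb1, chr17:34305737-34305866, plus strand: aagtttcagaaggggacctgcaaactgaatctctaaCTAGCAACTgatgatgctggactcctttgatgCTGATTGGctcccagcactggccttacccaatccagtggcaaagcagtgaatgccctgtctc
C1qb, chr4:136886201-136886400, minus strand: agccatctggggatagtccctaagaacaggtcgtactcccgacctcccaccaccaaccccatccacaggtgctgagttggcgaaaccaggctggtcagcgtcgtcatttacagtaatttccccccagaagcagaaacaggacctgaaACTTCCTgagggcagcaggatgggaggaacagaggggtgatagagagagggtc
C1qc, chr4:136893066-136893114, minus strand: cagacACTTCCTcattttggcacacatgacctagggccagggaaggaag

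In H2-Aa the X box core lay at -84 to -76 and the Y box at -51 to -44, with 24 bases between them. In H2-Eb1 the X box core lay at -94 to -86 and the Y box at -62 to -55, with 23 bases between them. The letters were chosen after these promoters had been read, and both strands of the 250 bases before each start were searched in 32851 windows of the table. The X box core stood in 0.779% of all windows, the Y box in 3.83%, and both together in 13 windows, or 0.0396%. H2-Aa and H2-Eb1 were the only members with an entry that held either box. The other class II members, Cd74 and H2-Ab1, had no entry and were not searched. The PU.1 core, which overlaps neither box, stood in 7.69% of all windows and in 8 of the 21 members with an entry, which were C1qb, C1qc, Cd3d, Cd3e, Cd79a, Lyz2, Mrc1 and Ptprc. It lay at -53 to -47 in C1qb and at -195 to -189 in C1qc. The C1qc stretch printed covers only -200 to -152 before the RefSeq start. Its last base abuts the GENCODE span of C1qc, so RefSeq and GENCODE place the start differently. A match describes letters in a window and does not show that a factor binds there.

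Library totals lay between 22104256 and 29917292 counts, and the 34 genes together took from 0.0367% to 0.24% of them. Levels are given as CPM, the counts of a gene scaled to a common library depth with TMM factors. Traf6 was at 17.9, 25.5 and 22.1 CPM in controls 1 to 3, at 12.6 CPM in the library labelled control 4 and at 14.7, 15.3 and 14.5 CPM in the Traf6 KO libraries, so its lowest level was in a control library (log2 fold change -0.40 ± 0.22 SE, adjusted p = 0.416). Genes of acinar cells, mostly of digestive enzymes and 22 in the list used, took 18%, 0.44%, 0.429% and 2.99% of counts in controls 1 to 4 and 50.3%, 39.3% and 1.5% in Traf6 KO 1 to 3. Traf6 KO 3 was the only library with the female pattern of Xist (421 CPM) and no Ddx3y count. The animal tags start with Q in controls 1 and 2 and Traf6 KO 1 and 2, with R in control 3 and with S in control 4 and Traf6 KO 3. Both libraries with an S tag stood apart in leukocyte genes, control 4 in myeloid and class II genes and Traf6 KO 3 in Ighm.

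No leukocyte marker passed the test of a difference between the genotypes. By edgeR's quasi-likelihood test with Benjamini-Hochberg adjustment, 0 of the 34 genes passed an adjusted p of 0.05, where 0 of all 16203 genes (0.0%) did. At an unadjusted p under 0.05 there was 1 member, Ighm, where 16.0% of all genes stood, and by the DESeq2 Wald test there were 2, Ighm and Tyrobp, where 17.4% of all genes stood. DESeq2 called 744 of all genes (4.59%) at an adjusted p under 0.05 and 0 of the members, and with the level of acinar genes as a covariate edgeR called 0.0185% of all genes and 0 of the members. In 0 of 34 members did every Traf6 KO library lie above or below every control library, against 5.58% of all genes above, 8.68% below and 14.3% in either direction. The median log2 fold change over the members was -0.44, with 14 above 0 (50.7% of all genes) and 20 below 0 (49.3% of all genes), and over all genes it was 0.005. In whole islets a lower level of a marker can come from fewer cells of a type or from less RNA per cell, and these cannot be told apart.

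**Figure D1:**
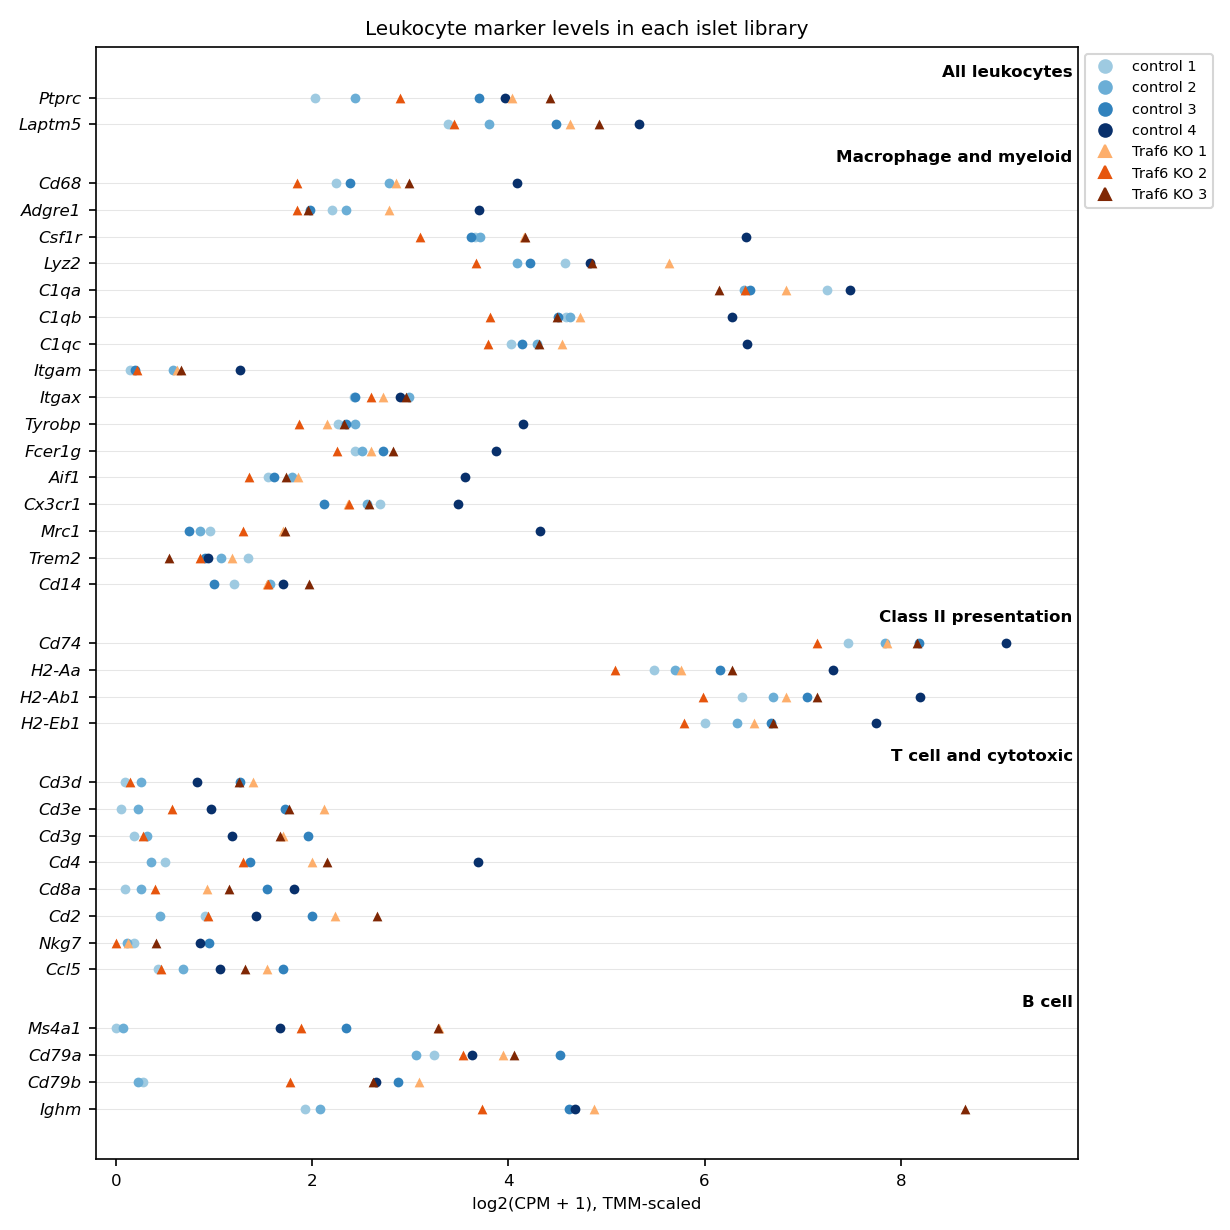
Levels of the 34 markers in each library as log2(CPM + 1) on the x axis, with controls as blue circles and Traf6 KO as orange triangles, grouped by cell type. Control 4 is the rightmost point for most macrophage and all class II genes, and Traf6 KO 3 is far to the right for Ighm.

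Ptprc encodes CD45, the phosphatase on the surface of all nucleated blood cells, and Laptm5 a lysosomal membrane protein of leukocytes. Ptprc was at 3.08, 4.43, 12 and 14.6 CPM in controls 1 to 4 and at 15.4, 6.46 and 20.5 CPM in Traf6 KO 1 to 3 (log2 fold change 0.73 ± 0.59 SE, adjusted p = 0.566). Laptm5 was at 9.42, 13, 21.4 and 39.4 CPM in the controls and at 23.7, 9.91 and 29.3 CPM in the Traf6 KO libraries (log2 fold change 0.01 ± 0.53 SE, adjusted p = 0.993). Both genes were low in controls 1 and 2 and in Traf6 KO 2 and high in the other 4 libraries, and the genotypes overlapped. The labels Control and Traf6 KO did not separate the libraries with many leukocyte transcripts from those with few.

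In the macrophage and myeloid genes, 13 of 16 log2 fold changes were below 0, with a median of -0.51, and none passed the test. Their mean log2(CPM + 1) was 3.05 ± 0.7 (SD, n = 4) in controls and 2.78 ± 0.31 (SD, n = 3) in Traf6 KO. This lean came with the library labelled control 4, which held the highest level of 12 of the 16 genes. Over all members control 4 was the highest library for 19 (55.9%), where it was the highest for 17.0% of all genes tested. It was also the highest for 7 of 11 endothelial genes (63.6%), by smaller margins. The endothelial mean log2(CPM + 1) was 5.2 in control 4 and from 4.74 to 5.1 in the other libraries. For the myeloid genes that mean was 4.09 in control 4 and from 2.43 to 3.02 in the other libraries. Without control 4 the median over the myeloid genes was 0.082, and 10 of the 15 then tested were above 0. Among libraries with Q and R tags only, which leave out both S libraries, the median was -0.061, while the S tag has 1 library in each genotype and gives no test of its own.

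Csf1r, the growth-factor receptor on which macrophages depend, was at 11.6, 12.1 and 11.3 CPM in controls 1 to 3, at 84.8 CPM in control 4 and at 16.9, 7.59 and 17.0 CPM in the Traf6 KO libraries. Control 4 was 7.31-fold above the median of the other controls, and the other 6 libraries lay between 7.59 and 17.0 CPM. The log2 fold change was -1.11 ± 0.81 (SE, adjusted p = 0.526), and it was 0.25 without control 4 and 0.052 among libraries with Q and R tags. The annotated Csf1r overlaps Hmgxb3 on the other strand, and without a stated strand setting reads of the overlap cannot be told apart.

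Mrc1 (chromosome 2, 14229392 to 14332057 on GRCm38), the mannose receptor of scavenging tissue macrophages, stood at 0.946, 0.808 and 0.673 CPM in controls 1 to 3, 19.0 CPM in control 4 and 2.26, 1.45 and 2.30 CPM in Traf6 KO 1 to 3. Control 4 was 23.5-fold above the median of the other controls. With control 4 set aside after its values were seen, each Traf6 KO library lay above each of controls 1 to 3. The share of all genes that would do so was not counted. These levels rest on 27, 29 and 23 counts in controls 1 to 3 and 25, 27 and 71 in Traf6 KO 1 to 3. The log2 fold change was -1.41 ± 1.25 (SE, adjusted p = 0.605) with all libraries and 1.31 (adjusted p = 0.339) without control 4. Its sign thus rested on 1 library.

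The C1q genes lie side by side on chromosome 4, from 136880129 at the end of C1qb to 136898803 at the start of C1qa on GRCm38, and were among the most abundant members. Per kilobase of annotated exon, control means were 120 CPM for C1qa, 33.3 CPM for C1qb and 17.6 CPM for C1qc. C1qb was at 23.1, 23.8, 21.7 and 76.5 CPM in the controls and at 25.6, 13.1 and 21.5 CPM in the Traf6 KO libraries. C1qc was at 15.3, 18.6, 16.6 and 85.5 CPM in the controls and at 22.3, 12.9 and 18.9 CPM in the Traf6 KO libraries. Outside control 4, C1qb ran from 13.1 to 25.6 CPM and C1qc from 12.9 to 22.3 CPM. Their log2 fold changes were -0.86 ± 0.50 (SE, adjusted p = 0.431) and -0.92 ± 0.65 (SE, adjusted p = 0.512). Without control 4 they were -0.19 and 0.1.

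C1qa did not keep step with the other C1q chains. It was at 151, 83.4, 87.3 and 178 CPM in controls 1 to 4 and at 113, 84.4 and 69.9 CPM in Traf6 KO 1 to 3 (log2 fold change -0.49 ± 0.31 SE, adjusted p = 0.464, and -0.26 without control 4). Control 1, which had an ordinary level of C1qb, had nearly as much C1qa as control 4. The ratio of C1qa to C1qb counts, which does not depend on library scaling, was 6.55, 3.5, 4.03 and 2.33 in the controls and 4.42, 6.42 and 3.25 in the Traf6 KO libraries, a 2.81-fold range. The ratio of C1qc to C1qb counts, added after the values were seen, ranged 1.68-fold, from 0.665 in control 1 to 1.12 in control 4. The highest C1qa to C1qb ratios were in control 1, Traf6 KO 2 and Traf6 KO 1, the libraries with acinar shares of 18%, 39.3% and 50.3%, though not in the order of those shares. The part of acinar RNA in this ratio was not tested.

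Tyrobp and Fcer1g encode signalling adaptors of myeloid receptors. Tyrobp was at 3.82, 4.40, 4.10 and 16.7 CPM in the controls and at 3.44, 2.64 and 4.02 CPM in the Traf6 KO libraries. Fcer1g was at 4.41, 4.68, 5.59 and 13.7 CPM in the controls and at 5.07, 3.77 and 6.06 CPM in the Traf6 KO libraries. Both had their maximum in control 4, and their log2 fold changes were -1.10 ± 0.58 (SE, adjusted p = 0.384) and -0.51 ± 0.44 (SE, adjusted p = 0.589). Without control 4 the values were -0.28 for Tyrobp and 0.026 for Fcer1g.

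Aif1, Cd68, Adgre1 and Cx3cr1 mark macrophages by a calcium-binding protein, a lysosomal glycoprotein, an adhesion receptor and the fractalkine receptor. Aif1 was at 1.93, 2.48, 2.05 and 10.8 CPM in the controls and at 2.62, 1.56 and 2.33 CPM in the Traf6 KO libraries (log2 fold change -0.99 ± 0.68 SE). Cd68 was at 3.75, 5.88, 4.24 and 16.0 CPM in the controls and at 6.24, 2.59 and 6.96 CPM in the Traf6 KO libraries (log2 fold change -0.50 ± 0.58 SE). Adgre1 was at 3.61, 4.07, 2.93 and 12 CPM in the controls and at 5.88, 2.59 and 2.88 CPM in the Traf6 KO libraries (log2 fold change -0.60 ± 0.56 SE). Control 4 was the highest library for each, and the remaining controls lay inside or close to the range of the Traf6 KO libraries. Cx3cr1 was at 5.46, 4.90, 3.36 and 10.2 CPM in the controls and at 4.16, 4.20 and 4.99 CPM in the Traf6 KO libraries (log2 fold change -0.42 ± 0.37 SE). The annotated span of Cx3cr1 overlaps several genes on both strands. Adjusted p-values of these 4 genes ran from 0.496 for Aif1 to 0.697 for Cd68, and without control 4 the log2 fold changes of Aif1, Cd68 and Adgre1 were 0.01, 0.19 and 0.082.

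The gap of control 4 was not shared by all myeloid genes. Itgax, an integrin chain that islet macrophages carry and dendritic cells are known for, was at 4.38, 6.91, 4.42 and 6.42 CPM in the controls and at 5.61, 5.06 and 6.74 CPM in the Traf6 KO libraries. Its highest level was 1.58-fold its lowest, the narrowest range of the 34 genes (log2 fold change 0.07 ± 0.23 SE, adjusted p = 0.906). Itgam, the integrin chain of monocytes and neutrophils, was scarce in every library, with 3 to 40 counts. It was at 0.105, 0.502, 0.146 and 1.41 CPM in the controls and at 0.543, 0.162 and 0.583 CPM in the Traf6 KO libraries (log2 fold change -0.32 ± 0.93 SE, adjusted p = 0.893), and it overlaps the annotated Gm49368 on the same strand. Itgax counts exceeded Itgam counts 4.51-fold in control 4 and 9.62-fold to 35.9-fold in the other libraries. Control 4 was thus not high in Itgax while it was the highest in Itgam.

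Trem2, a lipid receptor of macrophages, was at 1.54, 1.11, 0.878 and 0.918 CPM in the controls and at 1.27, 0.808 and 0.453 CPM in the Traf6 KO libraries (log2 fold change -0.45 ± 0.43 SE, adjusted p = 0.636). Cd14, the co-receptor for bacterial lipopolysaccharide, was at 1.3, 1.98, 0.995 and 2.26 CPM in the controls and at 1.90, 1.94 and 2.91 CPM in the Traf6 KO libraries (log2 fold change 0.47 ± 0.36 SE, adjusted p = 0.546). Neither stood apart in control 4. Lyz2, lysozyme of myeloid cells, was at 22.9, 16.0, 17.6 and 27.5 CPM in the controls and at 48.9, 11.7 and 27.9 CPM in the Traf6 KO libraries (log2 fold change 0.48 ± 0.42 SE, adjusted p = 0.596). Its highest level was in Traf6 KO 1, and without that library the log2 fold change was -0.076. The near-identical Lyz1 was at 2.35 CPM or less, and how shared reads were divided between both copies is not given in the sources used here.

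**Figure D2:**
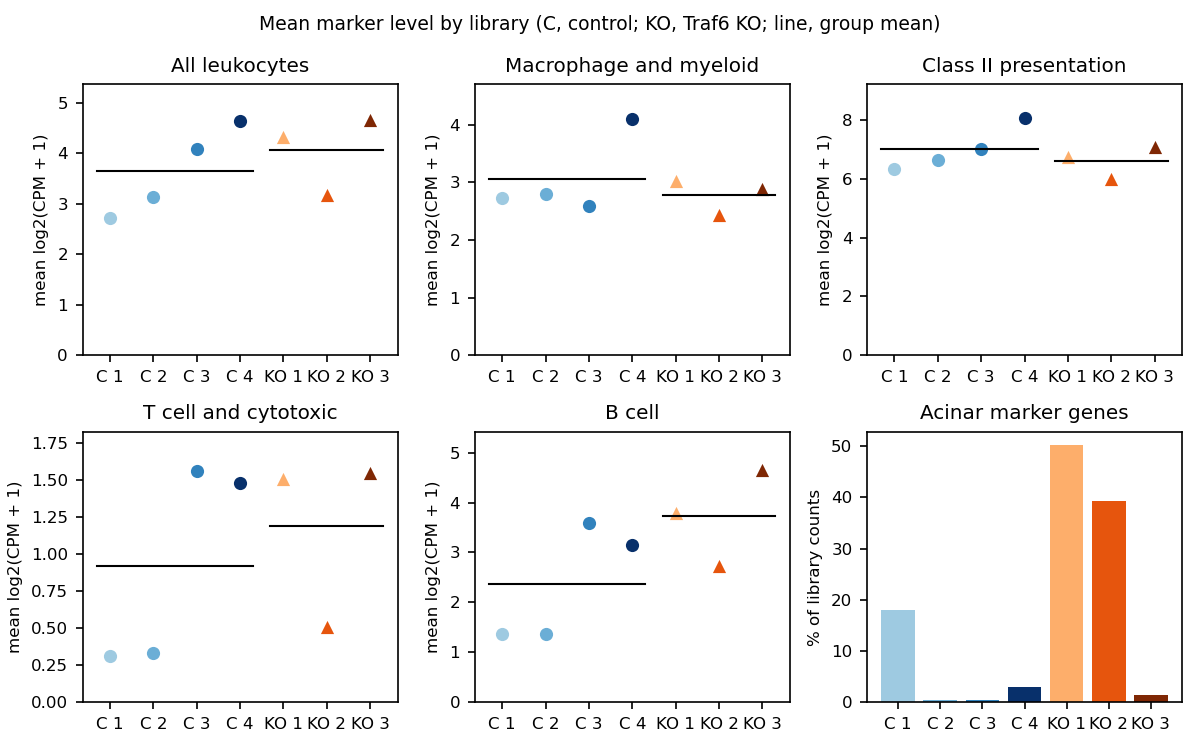
Mean log2(CPM + 1) of each marker group in each library, with a line at the mean of each genotype, and the percentage of counts in acinar genes as bars. Control 4 has the highest mean of the myeloid (4.09) and class II genes (8.08), while controls 1 and 2 and Traf6 KO 2 have the lowest means of the T-cell genes (0.31, 0.33 and 0.51).

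Class II genes were among the most abundant members, with control means of 183 CPM for Cd74, 59.2 CPM for H2-Ab1, 58.8 CPM for H2-Eb1 and 21.2 CPM for H2-Aa per kilobase of annotated exon. All 4 log2 fold changes were below 0, with a median of -0.51, and none passed the test. Their mean log2(CPM + 1) was 7.02 ± 0.76 (SD, n = 4) in controls and 6.61 ± 0.547 (SD, n = 3) in Traf6 KO. Cd74 encodes the invariant chain, which escorts class II molecules to the compartment where peptides are loaded. It was at 175, 228, 290 and 535 CPM in the controls and at 231, 141 and 285 CPM in the Traf6 KO libraries (log2 fold change -0.49 ± 0.40 SE, adjusted p = 0.579). H2-Ab1, the beta chain of I-A, was at 82.3, 103, 131 and 291 CPM in the controls and at 113, 62.2 and 141 CPM in the Traf6 KO libraries (log2 fold change -0.53 ± 0.47 SE, adjusted p = 0.602). Control 4 was the highest library for each of the 4 genes and Traf6 KO 2 the lowest.

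H2-Aa, the alpha chain of I-A, was at 43.7, 51.0, 70.1 and 157 CPM in the controls and at 53.2, 33.0 and 76.9 CPM in the Traf6 KO libraries (log2 fold change -0.56 ± 0.48 SE, adjusted p = 0.588). H2-Eb1, the beta chain of I-E, was at 63.2, 79.7 and 101 CPM in controls 1 to 3, 2.68-fold above their median in control 4 and at 89.6, 54.4 and 103 CPM in the Traf6 KO libraries (log2 fold change -0.47 ± 0.43 SE, adjusted p = 0.611). H2-Eb1 overlaps Gm20513 on the other strand. Without control 4 the median over the 4 genes was -0.005, with 2 of the 4 above 0. Among libraries with Q and R tags only, which leave out Traf6 KO 3 as well, it was -0.29, with 0 of the 4 above 0.

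Class II transcripts kept nearly fixed proportions while their sum varied from 291 to 1198 CPM. The ratio of Cd74 to H2-Ab1 counts was 2.12, 2.21, 2.21 and 1.84 in the controls and 2.05, 2.27 and 2.02 in the Traf6 KO libraries, a 1.24-fold range in which the genotypes overlapped (log2 difference 0.02, exact two-sided permutation p = 0.9714). Ratios added after the values were seen were as tight. H2-Aa to H2-Ab1 ranged 1.15-fold, from 0.473 to 0.546, and H2-Eb1 to H2-Ab1 ranged 1.2-fold, from 0.731 to 0.875. The 2 promoters with X and Y boxes shown above belong to genes of this group. Class II transcripts per C1q transcript varied more, with H2-Ab1 to C1qb counts at 3.56, 4.33, 6.05 and 3.81 in the controls and 4.39, 4.73 and 6.56 in the Traf6 KO libraries (log2 difference 0.25, exact permutation p = 0.3429). The libraries with the highest values, Traf6 KO 3 and control 3, also held many B-cell transcripts, as did control 4 and Traf6 KO 1 with lower values, and class II is made by B cells as well as macrophages. The part of B cells in this ratio was not tested.

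T-cell and cytotoxic genes were scarce, and 5 of 8 log2 fold changes were above 0 (median 0.32) with none past the test. Their mean log2(CPM + 1) was 0.92 ± 0.694 (SD, n = 4) in controls and 1.19 ± 0.586 (SD, n = 3) in Traf6 KO. Their summed level was 2.1, 2.15, 16.3 and 21 CPM in the controls and 16.8, 3.88 and 17.8 CPM in the Traf6 KO libraries. Of the 21 CPM in control 4, Cd4 alone made up 11.9 CPM. Controls 1 and 2 and Traf6 KO 2 thus had few such transcripts and the other 4 libraries several times more, in both genotypes. The genes of the CD3 complex, which couples the T-cell receptor to its kinases, followed that split. Cd3e was at 0.035, 0.167, 2.31 and 0.953 CPM in the controls and at 3.35, 0.485 and 2.40 CPM in the Traf6 KO libraries (log2 fold change 1.23 ± 1.10 SE, adjusted p = 0.608). Only 1 Cd3e count was seen in control 1 and 6 in control 2, and the gene overlaps the antisense Gm48719. Cd3d ranged from 0.07 to 1.63 CPM and Cd3g from 0.14 to 2.90 CPM, with log2 fold changes of 0.74 ± 1.03 and 0.44 ± 1.06 (SE, adjusted p = 0.754 and 0.868).

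Cd4, the co-receptor of helper T cells that some macrophages and dendritic cells also carry, behaved unlike the CD3 genes. It was at 0.42, 0.279, 1.58 and 11.9 CPM in the controls and at 2.99, 1.45 and 3.43 CPM in the Traf6 KO libraries. Control 4, in which Cd3e was below 1 CPM, had by far the most Cd4, as it had of Csf1r and Mrc1. The log2 fold change of Cd4 was -0.42 ± 1.18 (SE, adjusted p = 0.887) with all libraries, 1.78 (adjusted p = 0.381) without control 4 and 1.52 among libraries with Q and R tags. Cd8a, the co-receptor of cytotoxic T cells, was at 0.07, 0.195, 1.90 and 2.51 CPM in the controls and at 0.905, 0.323 and 1.23 CPM in the Traf6 KO libraries (log2 fold change -0.49 ± 1.08 SE, adjusted p = 0.855). Without control 4 its value was 0.19. The ratio of Cd4 to Cd8a counts ran from 0.832 in control 3 to 5.0 in control 1, where it rested on few counts, and the genotypes overlapped (log2 difference 0.55, exact permutation p = 0.5714).

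Cd2, an adhesion molecule of T and NK cells, was at 0.875, 0.362, 3.01 and 1.69 CPM in the controls and at 3.71, 0.916 and 5.31 CPM in the Traf6 KO libraries (log2 fold change 1.16 ± 0.76 SE, adjusted p = 0.478). Ccl5, a chemokine of cytotoxic cells, was at 0.35, 0.613, 2.25 and 1.09 CPM in the controls and at 1.90, 0.377 and 1.49 CPM in the Traf6 KO libraries (log2 fold change 0.20 ± 0.73 SE, adjusted p = 0.917). Nkg7, a protein of cytotoxic granules, was at 0.14, 0.0836, 0.936 and 0.812 CPM in the controls and at 0.0905, 0 and 0.324 CPM in the Traf6 KO libraries. Nkg7 had 0 to 32 counts per library, and the 0 in Traf6 KO 2 allows up to 0.162 CPM at 3 counts. It was the member with the lowest log2 fold change, -1.60 ± 1.13 (SE, adjusted p = 0.512). In Traf6 KO 1, which had the most Cd3e, Nkg7 had 1 count.

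The 2 highest log2 fold changes of the members belonged to B-cell genes, all 4 of which were above 0 with a median of 1.41, and none passed the test. Their mean log2(CPM + 1) was 2.37 ± 1.18 (SD, n = 4) in controls and 3.73 ± 0.961 (SD, n = 3) in Traf6 KO. Ms4a1 (chromosome 19, 11249675 to 11266241 on GRCm38) encodes CD20, a surface protein of mature B cells. It was at 0, 0.0557, 4.07 and 2.19 CPM in controls 1 to 4 and at 8.77, 2.69 and 8.71 CPM in Traf6 KO 1 to 3 (log2 fold change 2.08 ± 1.27 SE, adjusted p = 0.448). The counts behind these levels were 0, 2, 139 and 62 in the controls and 97, 50 and 269 in the Traf6 KO libraries, and the 0 in control 1 allows up to 0.105 CPM. Control 3 lay above Traf6 KO 2, so the genotypes overlapped. Ms4a1 overlaps the antisense 4930526L06Rik.

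Cd79a and Cd79b encode the chains that signal for the B-cell receptor, and their levels diverged in some libraries. Cd79b was at 0.21, 0.167, 6.35 and 5.30 CPM in the controls and at 7.51, 2.42 and 5.15 CPM in the Traf6 KO libraries (log2 fold change 0.73 ± 1.13 SE, adjusted p = 0.784). Cd79a was at 8.44, 7.36, 22.1 and 11.4 CPM in the controls and at 14.4, 10.6 and 15.6 CPM in the Traf6 KO libraries (log2 fold change 0.13 ± 0.38 SE, adjusted p = 0.887). In controls 1 and 2, where Cd79b had 6 counts each and Ms4a1 at most 2, Cd79a remained above 7 CPM. The ratio of Cd79a to Cd79b counts, added after the values were seen, was 37.2 and 40.7 in controls 1 and 2, 3.47 and 2.16 in controls 3 and 4, and 1.91, 4.34 and 3.02 in the Traf6 KO libraries. Cd79a reads therefore did not track B-cell genes at the low end, and what gave them in controls 1 and 2 was not tested.

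The ratio of Ms4a1 to Cd79b counts, another pair added after the values were seen, was 0.0769, 0.385, 0.641 and 0.415 in the controls and 1.17, 1.11 and 1.69 in the Traf6 KO libraries. The lowest Traf6 KO value lay above the highest control value, and the values of controls 1 and 2 rest on 8 counts or fewer of both genes together. Among the 11 pairs added in this way, 2 showed no overlap between genotypes, the other being Tyrobp to Fcer1g at 0.866, 0.941, 0.734 and 1.21 in the controls and 0.681, 0.702 and 0.664 in the Traf6 KO libraries. These pairs were picked from the data and carry no test, and the share of all gene pairs without overlap was not counted. Of all single genes tested, 14.3% showed no overlap in either direction.

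Ighm (chromosome 12, 113418558 to 113422730 on GRCm38) encodes the heavy chain constant region of IgM, the first antibody class a B cell makes. It was at 2.80, 3.23, 23.6 and 24.7 CPM in controls 1 to 4 and at 28.3, 12.3 and 401 CPM in Traf6 KO 1 to 3. Traf6 KO 3 alone held 12375 Ighm counts, while Traf6 KO 1 lay close to controls 3 and 4 and Traf6 KO 2 below them. The log2 fold change was 3.44 ± 1.29 (SE, unadjusted p = 0.0285, adjusted p = 0.267), the largest of the members, and it was 0.57 (adjusted p = 0.746) without Traf6 KO 3, a fit in which 4.24% of all genes and 0 of the members passed the adjusted p. Among libraries with Q and R tags it was 1.02. The sex difference of Traf6 KO 3 and its level of Ighm move together and cannot be told apart in 1 library. The ratio of Ighm to Cd79b counts was 77.6 in Traf6 KO 3, from 3.7 to 5.02 in the 4 other libraries with more than 6 Cd79b counts, and 12.4 and 17.9 in controls 1 and 2.

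**Figure D3:**
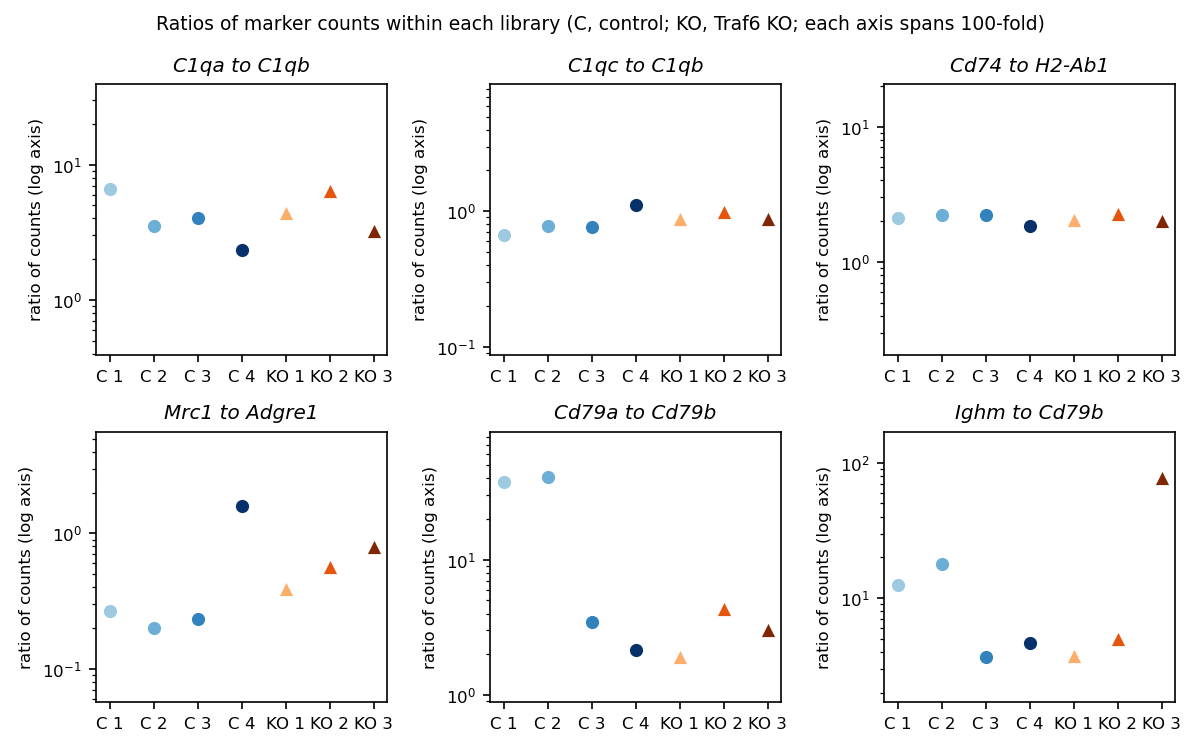
Ratios of 6 pairs of marker counts within each library on log axes that each span 100-fold. Cd74 to H2-Ab1 (1.84 to 2.27) is nearly level and C1qc to C1qb runs from 0.665 to 1.12, while Mrc1 to Adgre1 peaks in control 4, Cd79a to Cd79b in controls 1 and 2, and Ighm to Cd79b in Traf6 KO 3.

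Of the 8 ratios listed for testing, every pair overlapped between genotypes, with exact permutation p from 0.2286 to 1.0 and all adjusted p equal to 1.0. With 4 and 3 libraries the smallest p this test can give is 0.0571. Mrc1 to Adgre1 counts were at 0.266, 0.201 and 0.234 in controls 1 to 3, 1.58 in control 4 and 0.389, 0.567 and 0.799 in Traf6 KO 1 to 3, so within the macrophage genes Mrc1 stood out in control 4 and next in the Traf6 KO libraries (log2 difference 0.58, exact permutation p = 0.5714). Trem2 to Adgre1 counts were lowest in control 4, at 0.0776, and highest in control 1, at 0.43. Cd79a to Cd3e counts ran from 4.25 in Traf6 KO 1 to 161 in control 1, the last on 1 Cd3e count.

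**Figure D4:**
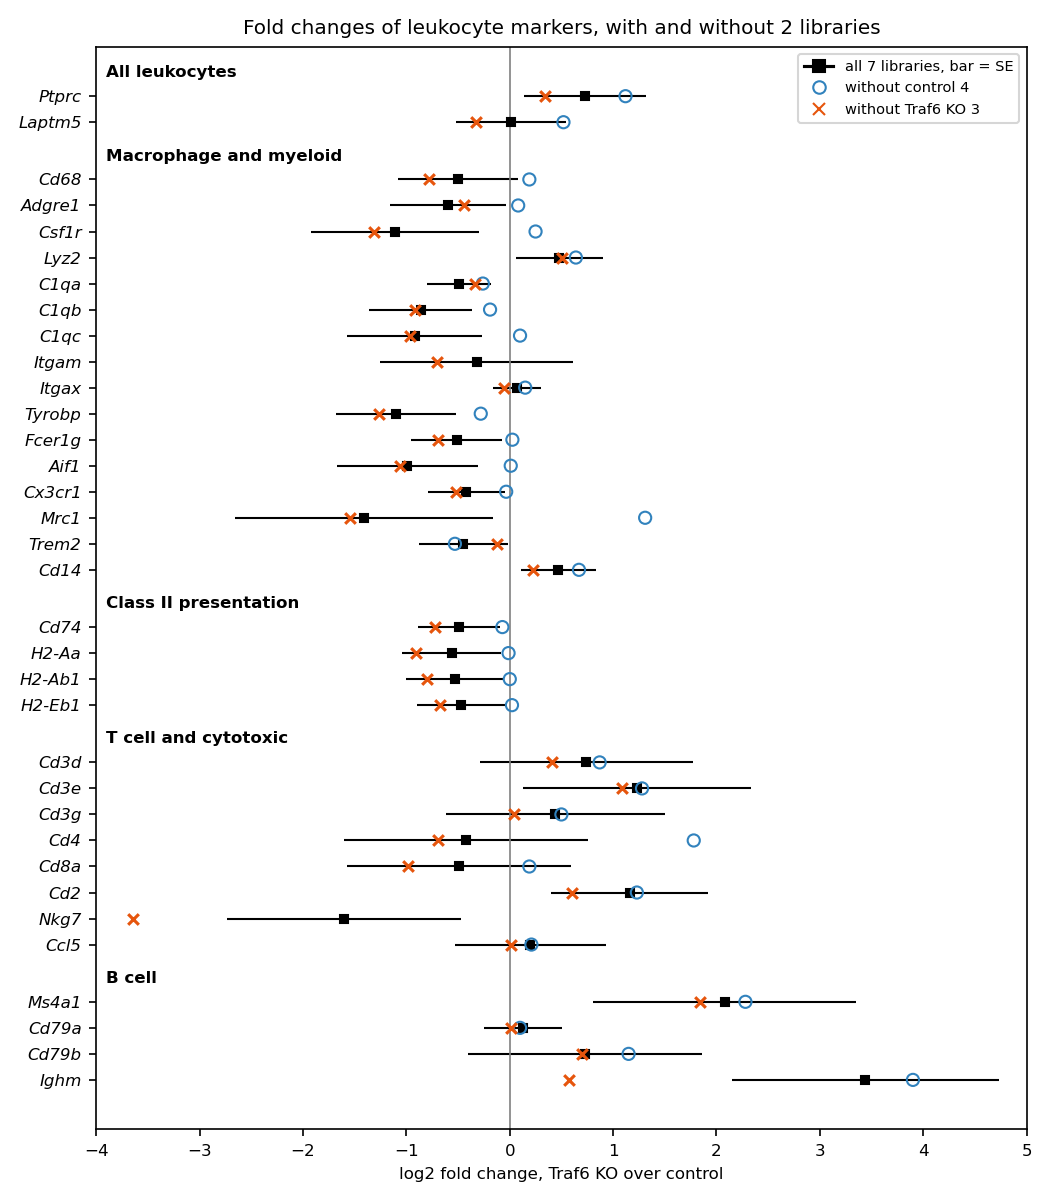
Log2 fold changes of Traf6 KO over control for the 34 markers, with all 7 libraries (squares, bars are SE), without control 4 (circles) and without Traf6 KO 3 (crosses). Without control 4 most myeloid and class II values move to 0 or above, and without Traf6 KO 3 the value of Ighm moves from 3.44 to 0.57. Itgam and Nkg7 have no circle because they did not pass the count filter there.

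Other genes of the same cells were read from lists, and in none of 9 such lists did a gene pass the adjusted p. The class II pathway list holds genes that switch class II on, load peptide or cut the invariant chain, and 8 of 11 were above and 3 below 0 (median 0.12). The smallest p-values belonged to H2-DMa and H2-DMb1, chains of the peptide exchanger (log2 fold changes -0.55 ± 0.42 and -0.85 ± 0.68 SE), and Ctss, the protease that trims the invariant chain (-0.42 ± 0.34 SE). Control 4 was the highest library for all 3, as it was for Ciita, which was at 1.75, 1.53, 3.98 and 8.51 CPM in the controls and at 5.70, 3.29 and 4.44 CPM in the Traf6 KO libraries. Part of the pathway followed the B-cell genes instead. H2-Ob, a chain of the exchanger's inhibitor in B cells, was at 0.35, 0.334, 5.56 and 5.01 CPM in the controls and at 4.43, 2.26 and 6.77 CPM in the Traf6 KO libraries.

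Resident macrophage genes had 1 of 8 tested above 0 and 7 below (median -0.28), and 4 of the 12 listed did not pass the filter. Sirpa, which restrains engulfment, had a log2 fold change of -0.24 ± 0.13 and Lyve1, a hyaluronan receptor, of -0.51 ± 0.37 (SE). Sirpa lay between 111 and 157 CPM in every library, a 1.41-fold range, and which cells gave its reads was not tested. Marco, a scavenger receptor of macrophages at blood filters and in the lung, was at 0, 0 and 0.0293 CPM in controls 1 to 3, 259 CPM in control 4 and 0.724, 3.66 and 9.10 CPM in the Traf6 KO libraries. The 7324 Marco counts of control 4 stood against 1 in controls 1 to 3 together, and the fitted value of -3.76 ± 2.67 (SE, adjusted p = 0.514) rests on that library. The ratio of Marco to C1qb counts, added after the values were seen, was 3.38 in control 4 and 0.424 or less in every other library.

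Genes of monocytes and neutrophils had 5 of 6 tested above 0 (median 0.41), with log2 fold changes of 0.42 ± 0.35 for Vcan and -0.83 ± 0.79 for Csf3r (SE). Genes of lipid-laden macrophages were split, 5 above and 5 below 0 (median -0.01). Fabp5, a fatty acid carrier, had a log2 fold change of 1.29 ± 0.42 (SE, adjusted p = 0.231) and was highest in Traf6 KO 1 and 2, at 14.8 and 9.05 CPM, the libraries with the most acinar counts. The part of acinar cells in that value was not tested. Cd9 had a log2 fold change of 0.52 ± 0.19 and Plin2, a lipid droplet coat protein, of -0.44 ± 0.21 (SE, adjusted p = 0.264 and 0.341). For Plin2 the highest Traf6 KO level lay below the lowest control level, as it did for 8.68% of all genes.

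Dendritic cell genes had 5 of 6 tested above 0 (median 0.28), with log2 fold changes of 0.58 ± 0.25 for Zbtb46, -2.24 ± 1.28 for Siglech and 0.94 ± 1.28 for Ccr7 (SE). Siglech, of plasmacytoid dendritic cells, was at 13.8 CPM in control 4 and at 1.18 CPM or less elsewhere. Growth and lineage signals of macrophages had 4 of 10 above 0 (median -0.09), with Cebpa at 1.02 ± 0.47, Runx1 at 0.86 ± 0.45 and Csf2ra at -0.56 ± 0.38 (log2 fold change, SE). Cebpa was highest in Traf6 KO 1 and 2, at 30.4 and 18.5 CPM, the libraries with the most acinar counts. The part of acinar cells in the Cebpa value was not tested. Spi1, which encodes PU.1, was at 2.63, 3.68, 2.84 and 15.3 CPM in the controls and at 3.80, 1.83 and 4.11 CPM in the Traf6 KO libraries, again highest in control 4. Signalling genes of phagocytes had 5 of 11 above 0 (median -0.02), led by Fgr, Fcgr3 and Fcgr2b at 1.02 ± 0.55, -0.78 ± 0.51 and 0.81 ± 0.57 (log2 fold change, SE).

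The lymphocyte lists leaned above 0, as did the class II pathway, monocyte and neutrophil, and dendritic cell lists. Of 14 tested T and NK genes, 13 were above 0 (median 0.74), with Cd247 at 1.13 ± 0.63 and Cd28 at 1.35 ± 0.85 (log2 fold change, SE), and Traf6 KO 3 was the highest library for 11 of the 18 listed (61.1%), where it was the highest for 21% of all genes. Of 16 B-cell and plasma-cell genes, all were above 0 (median 1.22), and Traf6 KO 3 was the highest library for 10 (62.5%). Xbp1, a factor of secretory cells that acinar cells also express strongly, had a log2 fold change of 0.72 ± 0.23 (SE, adjusted p = 0.227) and was highest in Traf6 KO 1 and 2, at 526 and 413 CPM. Tnfrsf13b and Cr2, receptors of mature B cells, had 1.52 ± 0.51 and 1.86 ± 0.99 (SE, adjusted p = 0.235 and 0.388). Pax5, the B-lineage factor, was at 0.105, 0.279, 4.77 and 1.2 CPM in the controls and at 3.80, 1.35 and 6.64 CPM in the Traf6 KO libraries, the split seen for Ms4a1 and Cd79b.

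Genes outside the 34 whose log2(CPM + 1) followed the myeloid mean most closely over the 7 libraries, among 10695 genes with a mean of at least 5 CPM, were Trf (Pearson r = 0.98), Stab1 (0.966), Tgfbi (0.955), Sema4a (0.948), Hpse (0.947), Gm2a (0.944), Prcp (0.943) and Unc93b1 (0.94). Those that followed the B-cell mean were Stk17b (0.991), Cd22 (0.985), Cd37 (0.953), Adam17 (0.928), Arhgap6 (0.92), H2-Q6 (0.916), Rac2 (0.915) and Coro1a (0.914). These are descriptions over 7 points that share library scaling. The myeloid values rest largely on the distance of control 4 from the rest.

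Genes of other islet and pancreas cells are given beside the leukocyte genes. All 22 acinar genes were above 0 (median log2 fold change 3.21), 8 of 10 ductal (0.75) and 9 of 11 stellate and fibroblast genes (1.25), while 9 of 11 endothelial (-0.19) and 12 of 12 beta-cell genes (-0.36) were below 0, and none passed the adjusted p. Dividing by library totals without acinar counts gave a median of -0.54 for the 34 genes, against -0.06 for all genes, and left 0 of them past the threshold. The share of the 34 genes in non-acinar counts was 0.0751%, 0.0896%, 0.111% and 0.248% in the controls and 0.0874%, 0.0604% and 0.178% in the Traf6 KO libraries. The genotypes overlapped in that share, and control 4 and Traf6 KO 3, the libraries with S tags, held the highest.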

How the data were processed

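Gene counts of 7 islet libraries, 4 control and 3 Traf6 KO, were taken from 1 table. The deposited values are raw counts, all of them whole numbers (100%). The submitters' processing notes name FastQC, STAR 2.6.1b, RSEM 1.3.1 and the GRCm38 build without saying what each was used for. Counts could thus be RSEM estimates that were rounded, with reads of similar genes divided between them. For annotation, strand setting and filters the answer is not given in the sources used here. Of 55487 identifiers, 55141 matched GENCODE M21 (GRCm38), the source of exon lengths and overlaps, and 26497 had 0 counts in all libraries.

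The main test was edgeR 4.0.16 under R 4.3.3 (quasi-likelihood F test, TMM factors of 0.5 to 1.351, filterByExpr with a minimum count of 10 and total of 15, genotype as the only term), with Benjamini-Hochberg adjustment over all genes tested and a threshold of 0.05. A log2 fold change above 0 means higher in Traf6 KO, and each SE is the log2 fold change over the root of its F value. Ratios of counts had 0.5 added to each count and were compared by exact two-sided permutation of the genotype labels over their 35 arrangements (scipy 1.17.1, Python 3.11.15), adjusted over 8 ratios. Alternatives were DESeq2 1.42.0, its size factors, totals without acinar genes, no filter, the animal tag letter as a term, Q and R tags only, the acinar level as a covariate, a replicate block and each library left out. The scripts were tested on simulated data. At these depths 3 counts correspond to 0.0836 to 0.271 CPM, the upper limit given for a count of 0, which covers counting error only.

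The 34 genes, the companion lists and the tests were chosen with earlier results of these data known. Named are all 34 members, in each companion list the 3 tested genes with the smallest p (2 of these genes are not reported here), and the 8 genes most like the myeloid and B-cell means. Ciita, H2-Ob, Spi1, Pax5 and those in the last part below were chosen after their values were seen, as were the added ratios and the promoter motifs. Library numbers of both genotypes were not treated as pairs in the main test, because the labels give these numbers no stated meaning. Same-numbered libraries correlated at 0.597, -0.177 and 0.454 in their deviations from the group means.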

Additional observations from a re-analysis of the deposited data

Results flagged for a closer look

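In 42 values examined over the 4 control libraries (the 34 genes and the 8 tested ratios), all on a log2 scale, 7 had 1 library whose gap to its nearest neighbour took a larger part of the whole range than Dixon's 95% limit for 4 samples. About 1 in 20 such groups is expected to do so by chance, and genes of 1 cell type are not independent of each other. The library was control 4, and the highest of the group, each time. The values in it were 84.8 CPM for Csf1r, 76.5 CPM for C1qb, 85.5 CPM for C1qc, 16.7 CPM for Tyrobp, 10.8 CPM for Aif1 and 19.0 CPM for Mrc1. The ratio of Mrc1 to Adgre1 counts there was 1.58. No T-cell, B-cell or class II member met this rule, and Traf6 KO 3 was not examined because its group holds 3 libraries.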

How the results depend on the processing

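Under the 15 alternatives 0 of the 34 genes passed an adjusted p of 0.05 where one was given, with a smallest value of 0.117 (Ighm, DESeq2). Over all genes the number called was 744 with DESeq2, 3 with the acinar level as a covariate, 5 with a replicate block and from 0 to 701 with 1 library left out, the 701 without Traf6 KO 3. Of 502 log2 fold changes of members under alternatives, 42 changed sign, in 17 genes, and 11 genes did so without control 4. With a replicate block, which leaves out control 4 and pairs libraries that share only a number, they were 0.12 for Cd68, 0.014 for Adgre1, 0.17 for Csf1r, 0.069 for C1qc, 0.0039 for Fcer1g, 1.3 for Mrc1, 2.02 for Cd4 and 0.77 for Cd8a, and the medians were 1.01 for T-cell and 2.87 for B-cell genes. Not every library correlated best with its own number. Among Q and R tags they were 0.24 for Adgre1, 0.052 for Csf1r, 0.048 for C1qc, 1.18 for Mrc1, 1.52 for Cd4 and -0.023 for Cd79a. With a term for S tags against Q and R tags together, Cd4 was at 0.54 and Laptm5 at -0.00081. Laptm5 was at -0.07 with totals without acinar genes and at -0.0037 without a filter. With the acinar covariate Cd8a was at 0.23 and the T-cell median at 1.17.

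With 1 library left out, the log2 fold change ran from -0.33 to 0.52 for Laptm5, -0.78 to 0.19 for Cd68, -1.03 to 0.082 for Adgre1, -1.38 to 0.25 for Csf1r, -0.076 to 0.89 for Lyz2, -1.14 to 0.1 for C1qc, -0.7 to 0.085 for Itgam, -0.056 to 0.2 for Itgax, -0.69 to 0.026 for Fcer1g, -1.23 to 0.01 for Aif1, -1.78 to 1.31 for Mrc1, -0.8 to 0.00087 for H2-Ab1, -0.67 to 0.022 for H2-Eb1, -0.81 to 1.78 for Cd4, -0.98 to 0.19 for Cd8a, -0.18 to 0.86 for Ccl5 and -0.047 to 0.58 for Cd79a. The medians ran from -0.75 to 0.082 for myeloid, -0.038 to 1.49 for T-cell (the highest without control 3, the lowest without Traf6 KO 1) and 0.64 to 2.3 for B-cell genes (lowest without Traf6 KO 3). The log2 ratio differences ran from -0.014 to 0.5 for C1qa to C1qb, -0.046 to 0.048 for Cd74 to H2-Ab1, -0.73 to 0.27 for Itgax to Itgam and -0.55 to 0.27 for Trem2 to Adgre1. With a replicate block the first was -0.00023 and the second -0.046, and among Q and R tags the second was -0.014. The cause of these shifts was not tested beyond which library was left out. Low counts limit Nkg7, Itgam, the CD3 genes and Ms4a1 most.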

Other observations

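Immunoglobulin transcripts beyond Ighm differed in class between libraries, given here as values chosen after they were seen. Igha, the heavy chain of IgA, the antibody of mucosal surfaces, took 86.9%, 88.4%, 57.5% and 77.8% of heavy-chain constant counts in controls 1 to 4 and 64.5%, 65.3% and 5.33% in Traf6 KO 1 to 3. Its level was 24.2, 45.1, 82.3 and 145 CPM in the controls and 101, 39.7 and 41.9 CPM in the Traf6 KO libraries. In Traf6 KO 3 Ighm took 51.0% and Ighg2b, an IgG heavy chain, 33.0%, and Ighg2b was at 259 CPM there against 15.9 CPM or less elsewhere. Ighd, which naive B cells co-express with Ighm, was at 3.79 CPM in Traf6 KO 3, below the 8.50 CPM of Traf6 KO 1 and the 7.72 CPM of control 3. Jchain, which joins IgM and IgA into polymers, was at 4.13, 6.10, 16.6 and 27.1 CPM in the controls and at 16.3, 9.8 and 65.2 CPM in the Traf6 KO libraries. In Traf6 KO 3 heavy-chain variable genes summed to 224 CPM, 45 of 113 had at least 10 counts, and the most frequent, Ighv6-3, took 20.9% of them. In the other libraries they summed to 9.25 to 49.1 CPM, with 7 to 28 genes at that count. Reads of similar variable genes can be divided between them by the counting.

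Of 4 dendritic cell genes that did not pass the count filter, 2 were highest in control 4, while Cd209a was highest in Traf6 KO 3 (0.486 CPM) and Clec10a in Traf6 KO 1 (0.633 CPM). Clec9a, of cross-presenting dendritic cells, was at 4.48 CPM in control 4 and at 0.518 CPM or less elsewhere. Xcr1, a chemokine receptor of the same cells, was at 3.71 CPM in control 4 and at 0.543 CPM or less elsewhere. Ccr7, which guides mature dendritic cells and naive lymphocytes, was instead highest in Traf6 KO 3 and control 3, at 7.35 and 5.97 CPM, and at 0.671 CPM in control 4.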
